A study of Homo sapiens with 62 samples.

Results

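Control cultures of one cell line were compared between 2 experiments. T3M-4 is a human pancreatic ductal adenocarcinoma line of the basal-like subtype, and the 8 control libraries of T3M-4 among the 62 libraries of the series were compared by experiment, 4 from experiment 1 with 4 from experiment 2. They were chosen by the experiment number, compound and line in the sample names. All groups carried the same alteration, labelled FKBP12-F36V-FLAG-KLF5_sgEndogenousKLF5: the transcription factor KLF5 was supplied by a lentiviral cDNA fused to the FKBP12 F36V degron tag, and the endogenous gene had been cut by CRISPR, in selected pools of Cas9-expressing cells. Within each experiment a pair of libraries had received the solvent DMSO and a pair NEG (dTAGv-1-NEG, an inactive analogue of the degrader dTAGv-1), each for 4 h. Treated T3M-4 libraries of the same experiments served as a further comparison: dTAG (dTAGv-1, which degrades the tagged KLF5), CB6644 (an inhibitor of the RUVBL1/2 ATPase) and NVP2 (an inhibitor of the kinase CDK9), 2 libraries of each in each experiment, also after 4 h. The labels put experiment 1 in batch 1 and experiment 2 in batch 2, so the culture, the handling and the batch cannot be told apart. The study calls the paired libraries of a condition biological replicates, but how they were separated is not given in the sources used here, so the p-values below measure only the spread between these libraries, which may be technical.

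The assay was SLAM-seq. Cells took up 4-thiouridine (4sU) for the last part of the treatment, the thiol groups in the RNA were alkylated, and RNA made in that time is recognised by T-to-C conversions in its reads (T>C reads). All reads of a gene therefore measure its RNA level, and T>C reads measure the RNA made within hours of harvest. The libraries were 3′ end libraries, in which 1 transcript gives reads near its 3′ end whatever its length, and values are given as CPM, the counts of a gene scaled to a common library total with edgeR's TMM factors. Where single libraries are listed, they stand in the order DMSO, DMSO, NEG, NEG within each experiment.

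Several programs that vary between cultures of one epithelial line are well described. Type I and type III interferons act through receptors and JAK kinases on ISGF3, a complex that includes STAT2 and IRF9 and binds the interferon-stimulated response element (ISRE) and switches on antiviral genes, which include IRF9 itself. NF-kB drives cytokines, chemokines and acute-phase proteins after signals from cytokine receptors. Basal-like pancreatic cancer cells express keratins and p63 of stratified squamous epithelium, whereas classical cells express gastrointestinal mucins and CEACAM proteins, and KLF5 is a zinc-finger factor of epithelial lineages. SREBP2 senses membrane cholesterol and raises the enzymes of its synthesis when it is low.

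The 8 libraries held 111132257 to 209650478 counts, of which 13562612 to 27308208 had T>C conversions, and 16831 to 19063 genes had at least 1 count. The first principal component of the log2 CPM held 67.4% of the variance and set the experiments apart, and the second, with 10.8%, spread the libraries of experiment 1. Epithelial and basal markers were present in every library, among them EPCAM at 33.7 to 40.0 CPM, TP63 at 17.6 to 31.5 CPM and S100A2 at 1525 to 2413 CPM. Markers of other cell types were scarce: the 14 markers of T cells, B cells and myeloid cells summed to 3.64 to 4.23 CPM in experiment 1 and 1.46 to 2.43 CPM in experiment 2, with CD2 and NKG7 at 0, and the 12 fibroblast markers to 16.3 to 20.5 and 16.5 to 19 CPM, with POSTN and DPT at 0. The 12 endothelial and neural markers summed to 18.2 to 23.6 CPM against 43.3 to 45.2 CPM, nearly all of it TUBB3, with CHGA and INS at 0. In bulk libraries such as these, fewer cells with a program and less of it in each cell cannot be told apart.

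Many genes differed between the experiments. Of 16123 genes tested in all reads with edgeR, 3064 were higher in experiment 2 and 3123 lower at a Benjamini-Hochberg adjusted p under 0.05, which is 19% and 19.4% of the genes tested. Of these 6187 genes, 1717 had a log2 fold change of at least 1 in size. The 4 libraries of one experiment lay wholly apart from the 4 of the other in 6259 genes (38.8%). In T>C reads, 1643 of 13890 genes (11.8%) were higher and 1327 (9.55%) lower. The second split depends on the scaling: with T>C counts scaled by the totals of all reads, 835 were higher and 2709 lower, and the median of all genes moved to -0.30. It fell to 1960 genes in all without the first NEG library of experiment 1. Among the 5925 genes called in all reads that could also be tested in T>C reads, 5592 (94.4%) had the same sign there and 2557 (43.2%) were also called with that sign, which is 86.1% of the T>C calls. Over all 13889 genes tested in both, called or not, 81.1% had the same sign. T>C reads are a part of all reads, so the 2 counts are not independent. Counts of list members below are to be read against those shares. By contrast, NEG against DMSO gave 0 called genes of 16123 (0%), with 781 at an unadjusted p under 0.05, and 0 also with the size factors of DESeq2. The test of whether the difference between experiments depended on the compound called 0 of 16694 (0%), with 1265 at an unadjusted p under 0.05. In simulated data with 200 changed genes, the test between experiments recovered 59.8% of genes changed by log2 1 and 6.2% of those changed by log2 0.5. Far more genes than that were called in the data, so these shares do not give the recovery there. The tests of compound were not simulated, so their 0 calls do not show that the compounds had no effect.

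**Figure D1:**
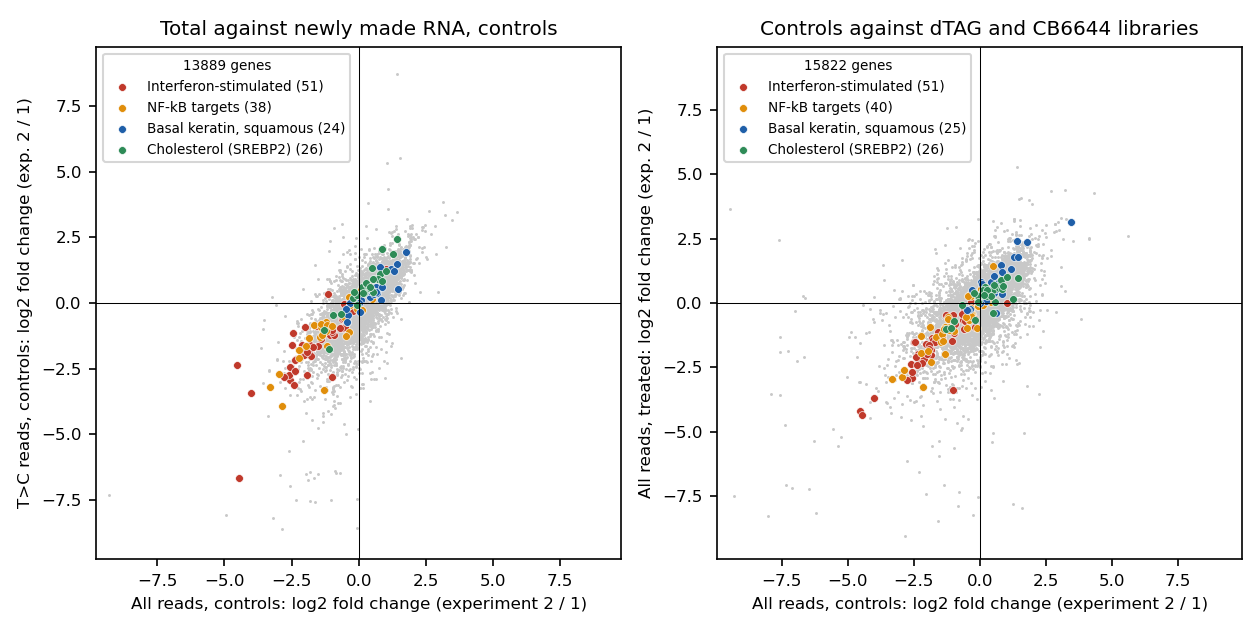
Each point is a gene, and both axes give the log2 fold change of experiment 2 over experiment 1. The left panel sets all reads of the 8 control libraries (horizontal) against their T>C reads (vertical) for 13889 genes, and the right panel sets the controls against the 8 dTAG and CB6644 libraries for 15822 genes. Coloured points are the interferon-stimulated, NF-kB, basal keratin and cholesterol lists. Interferon and NF-kB genes lie mainly at the lower left and basal keratin and cholesterol genes mainly at the upper right of both panels.

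Interferon-stimulated genes had the largest median difference of the 48 gene lists in all reads. Of 51 interferon-stimulated genes tested in all reads, 44 were lower in experiment 2, 1 was higher (BST2, tetherin) and 6 did not pass the test. Their median log2 fold change was -1.50, against -0.06 over all genes, and 45 of the 51 had no overlap between the experiments. The program was lower in new RNA too: in T>C reads 30 of 51 were lower and 1 was higher, with a median of -1.24. The test of new against unconverted reads asks whether the labelled share of a gene changed relative to the average gene. In it 2 of 51 were higher and 0 lower, beside 3.47% and 3.15% of all genes tested, and the median was 0.04. The direction of the list's median held in every setting tried, from -1.67 to -1.42 in all reads.

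IFITM1 (chromosome 11, 310041 to 315272, plus strand; GRCh38), which restricts virus entry at the membrane, had 61.0, 102, 116.1 and 90.7 CPM in experiment 1 and 3.53, 4.34, 3.49 and 5.34 CPM in experiment 2. All 4 libraries of experiment 1 lay above all 4 of experiment 2, by 22-fold on the fitted scale (log2 -4.46 ± 0.22 (SE), adjusted p = 7.99e-06, edgeR). Its T>C counts were near or at 0 in experiment 2, and no fold is given for them. IFI6, an interferon-induced mitochondrial protein on chromosome 1 (27666064 to 27672212, minus strand), had 153, 245, 184 and 120.5 CPM in experiment 1 and 9.70, 11.7, 12.8 and 9.37 CPM in experiment 2. It was 16-fold lower (log2 -4.00 ± 0.22 (SE), adjusted p = 8.78e-06) with no overlap, and its T>C reads were lower as well (log2 -3.45 ± 0.38 (SE), adjusted p = 0.000476). IFI6 counts were whole multiples of 4 in every library, as where a read over exons of several isoforms is counted for each, so its counting error is larger than its counts imply.

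The antiviral enzymes followed. OAS1, which makes the messenger that activates RNase L, had 202, 270.5, 209 and 142 CPM in experiment 1 and 34.6, 47.7, 31.5 and 45.3 CPM in experiment 2. Each library of experiment 2 was far below the lowest of experiment 1 (log2 -2.35 ± 0.19 (SE), adjusted p = 2.63e-05). OASL, a related protein, had 116.5, 115, 106 and 98.3 CPM in experiment 1 and 16.4, 19.8, 21.8 and 15.5 CPM in experiment 2, with tight groups and no overlap (log2 -2.57 ± 0.13 (SE), adjusted p = 8.78e-06). IFIT1, which binds viral RNA caps, had 22.03, 18.6, 18.98 and 16.03 CPM in experiment 1 and 4.32, 4.39, 2.84 and 3.61 CPM in experiment 2, and was again separate in every library (log2 -2.33 ± 0.13 (SE), adjusted p = 8.78e-06). Its T>C reads stood at 41.6, 34.0, 38.5 and 28.01 CPM of T>C reads in experiment 1 and 9.20, 6.16, 8.89 and 7.75 in experiment 2. IFI44L and TRIM22 were lower by log2 -2.60 ± 0.35 (SE), adjusted p = 0.000342 and -2.42 ± 0.26 (SE), adjusted p = 9.01e-05. The large GTPase MX1, an inhibitor of influenza viruses, averaged 316 ± 21.2 CPM (SD, n = 4) in experiment 1 and 73.1 ± 19.8 CPM (n = 4) in experiment 2, and the ubiquitin-like modifier ISG15 135 ± 16.8 CPM (SD, n = 4) in experiment 1 and 50.2 ± 2.35 CPM (n = 4) in experiment 2, both without overlap.

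The genes that carry the interferon signal differed in both directions. IRF9, the DNA-binding subunit of ISGF3, had 138, 484, 224.8 and 184 CPM in experiment 1 and 91.1, 103, 106 and 111.2 CPM in experiment 2; 1 DMSO library of experiment 1 stood far above the others, and the groups did not overlap (log2 -1.29 ± 0.33 (SE), adjusted p = 0.0103). STAT2, another subunit, averaged 45.9 against 30.4 CPM (log2 -0.60 ± 0.14 (SE), adjusted p = 0.00858). Of the receptor chains and kinases, IFNAR2 was lower (log2 -0.71 ± 0.10 (SE), adjusted p = 0.000561) and the kinase TYK2 higher (log2 1.03 ± 0.14 (SE), adjusted p = 0.000393), while IFNAR1 (log2 -0.20 ± 0.10 (SE), adjusted p = 0.151) and JAK1 (log2 -0.02 ± 0.11 (SE), adjusted p = 0.887) did not pass the test. The interferon gene IFNL1 was scarce, at 0.126 against 0.0330 CPM, and did not pass the test (adjusted p = 0.103).

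The letters of the ISRE stood in many of the promoters of these genes. In the RefSeq promoter table (GRCh38.p14), 41 of the 51 tested list genes had an entry, and the pattern GAAANNGAAA was found on either strand within the 250 bases before the start in 22 of them (53.7%), against 839 of all 27305 promoters (3.07%) and 278 of the 11949 promoters of tested genes (2.33%). A match is a description of the letters, and no match says only that they are absent from this window. Whether matches differ between members that were lower and members that were not was not tested. The 170 bases before the start are shown for the 4 list genes of largest fall with a match in that stretch and at least 10 CPM in experiment 1, with the matches in capitals, each read 5′ to 3′ on the strand of the gene. The windows lie at chr11:313870-314039 (plus strand) for IFITM1, chr1:27672193-27672362 (minus strand) for IFI6, chr1:78620278-78620447 (plus strand) for IFI44L and chr10:89392453-89392622 (plus strand) for IFIT1.
IFITM1: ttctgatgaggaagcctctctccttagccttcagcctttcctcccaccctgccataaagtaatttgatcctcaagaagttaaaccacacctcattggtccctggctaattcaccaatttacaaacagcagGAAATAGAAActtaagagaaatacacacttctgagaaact
IFI6: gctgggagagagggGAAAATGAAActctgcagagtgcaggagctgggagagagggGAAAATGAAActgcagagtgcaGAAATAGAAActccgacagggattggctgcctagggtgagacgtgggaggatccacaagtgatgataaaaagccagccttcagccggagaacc
IFI44L: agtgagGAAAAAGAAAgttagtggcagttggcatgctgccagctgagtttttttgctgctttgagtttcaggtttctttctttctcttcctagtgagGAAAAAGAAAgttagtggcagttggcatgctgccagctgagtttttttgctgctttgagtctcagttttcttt
IFIT1: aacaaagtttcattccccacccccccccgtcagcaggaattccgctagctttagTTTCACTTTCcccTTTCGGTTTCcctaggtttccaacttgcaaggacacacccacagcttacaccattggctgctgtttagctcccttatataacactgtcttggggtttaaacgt
IFI6 held 3 matches, IFI44L and IFIT1 2 each and IFITM1 1. In IFIT1 the capitals show the pattern as it reads on the opposite strand.

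Antigen presentation genes, which interferons also raise, were lower in experiment 2. Of 13 tested, 8 were lower, 0 higher and 5 not called, with a median log2 fold change of -1.33. The pattern GAAANNGAAA stood in the same promoter window in 3 of the 10 that had an entry (30%). NLRC5, the activator of class I genes, had 8.87, 9.94, 9.21 and 8.24 CPM in experiment 1 and 3.79, 3.44, 3.60 and 3.098 CPM in experiment 2. The 4 libraries of experiment 2 were all below those of experiment 1 (log2 -1.38 ± 0.11 (SE), adjusted p = 2.63e-05). PSMB10, an immunoproteasome subunit, averaged 67.5 ± 6.38 CPM (SD, n = 4) in experiment 1 and 26.9 ± 2.995 CPM (n = 4) in experiment 2, and its T>C reads were lower too (log2 -1.13 ± 0.23 (SE), adjusted p = 0.00742). HLA-C, a class I heavy chain, averaged 103 ± 23.9 CPM (SD, n = 4) in experiment 1 and 40.5 ± 5.91 CPM (n = 4) in experiment 2, with no overlap (log2 -1.32 ± 0.15 (SE), adjusted p = 0.000138). HLA-B (log2 -0.52 ± 0.35 (SE), adjusted p = 0.28) did not pass the test. Class I genes are near-identical in part, so reads can be split between them, and 10 of the 23 listed genes, among them HLA-E, TAP1 and PSMB8, had too few counts to test.

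**Figure D2:**
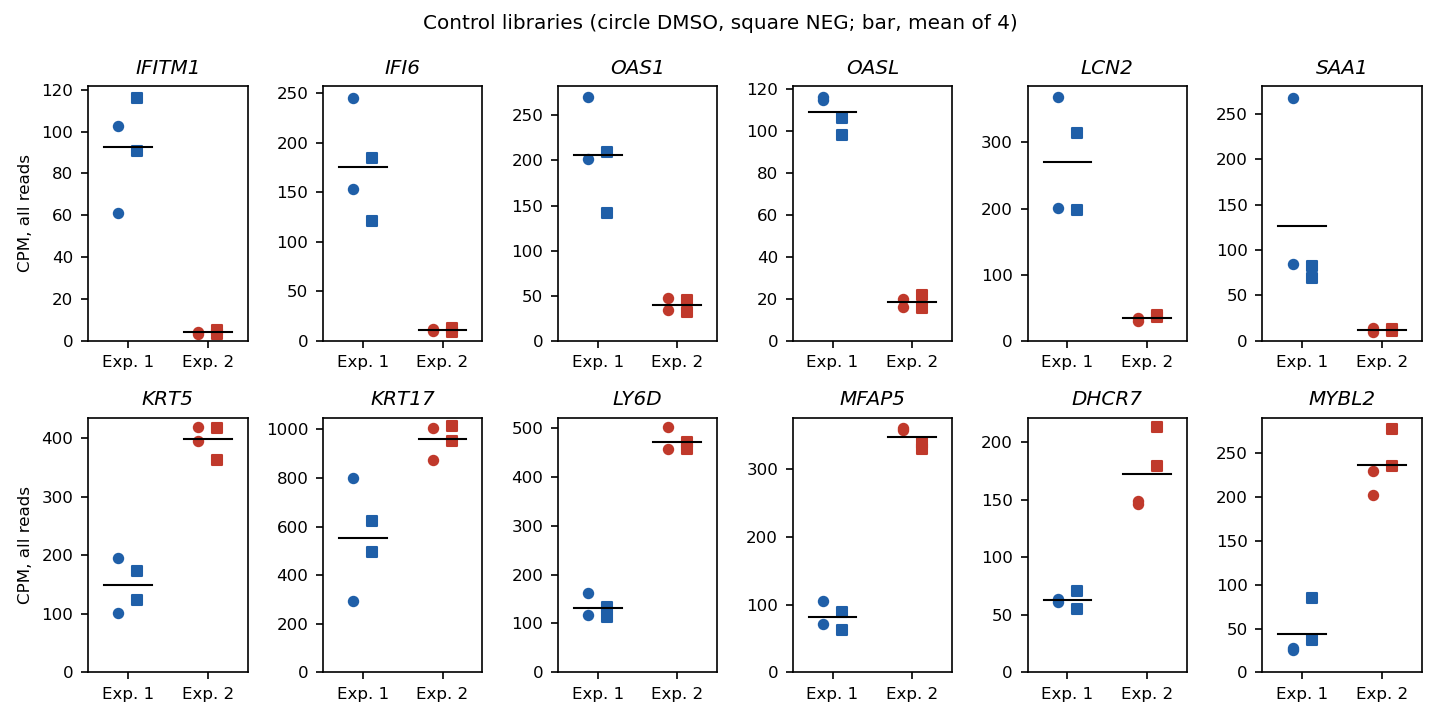
Each panel is one gene, each point one of the 8 control libraries, and the vertical axis gives CPM of all reads from 0. DMSO and NEG libraries of experiments 1 and 2 are drawn apart. IFITM1, IFI6, OAS1, OASL, LCN2 and SAA1 sit lower in all 4 libraries of experiment 2, and KRT5, KRT17, LY6D, MFAP5, DHCR7 and MYBL2 sit higher.

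NF-kB products and acute-phase proteins formed the next group. Of 40 cytokine, chemokine and inhibitor genes tested, 26 were lower in experiment 2, 1 was higher (NFKB1) and 13 did not pass the test, with a median of -1.08, which was -0.53 over genes of at least 1 CPM in 4 libraries. In T>C reads 18 of 38 were lower and 2 higher, with a median of -0.83. LCN2 (lipocalin 2, chromosome 9, 128149071 to 128153453, plus strand), an iron-siderophore binder secreted by inflamed epithelium, had 201, 368, 315 and 198 CPM in experiment 1 and 34.4, 29.9, 36.6 and 39.3 CPM in experiment 2. It was 7.73-fold lower with no overlap (log2 -2.95 ± 0.22 (SE), adjusted p = 1.89e-05). The acute-phase protein SAA1 had 84.9, 268, 82.0 and 69.5 CPM in experiment 1 and 9.61, 13.7, 12.97 and 10.4 CPM in experiment 2. The second DMSO library of experiment 1 stood far above the other 3, which were still above all of experiment 2 (log2 -3.31 ± 0.38 (SE), adjusted p = 0.000142). SAA2, whose sequence is close to that of SAA1, was lower in all libraries of experiment 2 as well (log2 -2.86 ± 0.16 (SE), adjusted p = 8.78e-06).

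The chemokine CXCL1, which draws neutrophils, had 13.4, 12.9, 12.9 and 13.2 CPM in experiment 1 and 3.99, 4.78, 3.65 and 4.11 CPM in experiment 2. All libraries within an experiment were close and the experiments 3.17-fold apart (log2 -1.67 ± 0.11 (SE), adjusted p = 1.23e-05). Its T>C reads differed by less, 38.7, 36.1, 40.2 and 37.7 CPM of T>C reads in experiment 1 and 22.01, 24.5, 19.03 and 19.5 in experiment 2, and the labelled share of its reads was higher in experiment 2 (log2 new against unconverted 1.44 ± 0.15 (SE), adjusted p = 0.00209). NFKBIZ, an inducible NF-kB cofactor with short-lived RNA, had 29.3, 21.4, 19.6 and 25.7 CPM in experiment 1 and 5.80, 6.63, 6.08 and 6.40 CPM in experiment 2 (log2 -1.94 ± 0.14 (SE), adjusted p = 1.6e-05). CXCL8 (log2 -1.41 ± 0.12 (SE), adjusted p = 3.23e-05), IL1B (log2 -1.46 ± 0.14 (SE), adjusted p = 5.54e-05) and complement C3 (log2 -1.86 ± 0.18 (SE), adjusted p = 5.8e-05) were lower too. The feedback inhibitors TNFAIP3 (log2 0.09 ± 0.11 (SE), adjusted p = 0.53) and NFKBIA (log2 -0.28 ± 0.10 (SE), adjusted p = 0.0524) did not pass the test, and the subunit genes NFKB1 (log2 0.36 ± 0.10 (SE), adjusted p = 0.02) and RELA (log2 0.47 ± 0.12 (SE), adjusted p = 0.00937) were somewhat higher.

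The NF-kB site GGGANNNTCC was present in the 250 bases before the start in 13 of 31 list genes with a promoter entry (41.9%), against 4.33% of all promoters and 4.9% of those of tested genes. The stretch before CXCL1 (chr4:73869223-73869392, plus strand, GRCh38.p14) is shown by the rule used for the interferon genes. That rule took the largest falls with a match in the printed stretch and the same minimum level in experiment 1. CXCL1 is the only gene of this list shown, so it does not stand for the other members. Its 2 matches, 1 on each strand, overlap and form the block of capitals.
CXCL1: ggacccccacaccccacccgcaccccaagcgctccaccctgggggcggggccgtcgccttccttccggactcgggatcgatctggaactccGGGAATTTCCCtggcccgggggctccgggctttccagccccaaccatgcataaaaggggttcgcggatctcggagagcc

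Some genes of the classical subtype and some mucins were lower in experiment 2, and the others did not pass the test. Of 21 classical identity genes tested, 7 were lower, 0 higher and 14 not called, with a median of -0.56, which was -0.35 with NEG libraries alone and -0.85 over genes of at least 1 CPM in 4 libraries; the list summed to 213 to 235 CPM in experiment 1 and about 124 CPM in every library of experiment 2. CEACAM6, a cell-surface adhesion protein, had 87.5, 76.02, 73.7 and 76.4 CPM in experiment 1 and 25.4, 27.1, 25.3 and 25.8 CPM in experiment 2, with no overlap (log2 -1.60 ± 0.09 (SE), adjusted p = 8.78e-06). CEACAM5, the carcinoembryonic antigen, averaged 9.63 ± 1.43 CPM (SD, n = 4) in experiment 1 and 2.30 ± 0.236 CPM (n = 4) in experiment 2 and was lower (log2 -2.06 ± 0.14 (SE), adjusted p = 1.59e-05). Of 11 mucins tested 6 were lower and 0 higher, with a median of -1.47, but 0 of 6 were called in T>C reads. MUC1, a membrane mucin, had 44.8, 50.1, 49.0 and 67.9 CPM in experiment 1 and 16.4, 17.9, 19.9 and 22.2 CPM in experiment 2 (log2 -1.47 ± 0.12 (SE), adjusted p = 2.63e-05); its T>C reads spread widely and did not pass the test (log2 -1.36 ± 0.76 (SE), adjusted p = 0.235). The study's Moffitt classical list had 15 of 150 tested genes higher and 45 lower, with a median of -0.40.

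More genes of the squamous lists were higher than lower in experiment 2. Of 25 genes of basal keratin and squamous identity tested, 17 were higher in experiment 2, 2 lower and 6 not called, with a median of 0.63, and of 45 genes of the cornified envelope and late squamous differentiation 21 were higher, 5 lower and 19 not called, with a median of 0.53. In T>C reads 10 of 24 and 8 of 33 were higher, 1 and 2 lower, and without the first DMSO library of experiment 2 the basal keratin count was 6. The genes named here and in the next paragraph were all higher, and the lower members of these lists are not named. In other lists, serpins of clade B had 0 of 13 higher and 4 lower, and S100 proteins 4 of 14 higher and 5 lower. KRT5 (chromosome 12, 52514575 to 52520530, minus strand), the type II keratin of basal cells, had 101, 195, 174 and 124 CPM in experiment 1 and 395, 419, 417 and 362 CPM in experiment 2. Every library of experiment 2 was far above the highest of experiment 1 (log2 1.42 ± 0.19 (SE), adjusted p = 0.000336), and the T>C reads were higher by log2 1.48 ± 0.21 (SE), adjusted p = 0.0014. KRT17 had 292, 799.8, 622 and 496 CPM in experiment 1 and 1007, 872, 951 and 1013 CPM in experiment 2; the experiments did not overlap, but 1 DMSO library of experiment 1 came close to experiment 2 (log2 0.80 ± 0.25 (SE), adjusted p = 0.0276). KRT6A (log2 0.73 ± 0.09 (SE), adjusted p = 0.000241), KRT14 (log2 1.3 ± 0.22 (SE), adjusted p = 0.00112) and KRT16 (log2 1.77 ± 0.19 (SE), adjusted p = 0.000105) were higher as well, and these keratins share sequence with each other and with pseudogenes.

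LY6D, a surface marker of stratified epithelium, had 163, 117, 134 and 113 CPM in experiment 1 and 502, 457, 456 and 470.3 CPM in experiment 2. Its groups were tight and 3.58-fold apart (log2 1.84 ± 0.12 (SE), adjusted p = 1.47e-05). The desmosomal plaque protein PKP1 averaged 3.19 ± 0.496 CPM (SD, n = 4) in experiment 1 and 8.77 ± 0.713 CPM (n = 4) in experiment 2 (log2 1.46 ± 0.14 (SE), adjusted p = 5.5e-05), and SPRR1A, a cross-linked envelope precursor, 4.88 ± 0.749 CPM (SD, n = 4) in experiment 1 and 13.7 ± 1.43 CPM (n = 4) in experiment 2 (log2 1.49 ± 0.14 (SE), adjusted p = 4.82e-05). In T>C reads PKP1 did not pass the test (log2 0.52 ± 0.29 (SE), adjusted p = 0.242, edgeR). KRT1, the keratin of the layers above the basal one, was at 0.0873 against 1.75 CPM, so the largest fold of this group (log2 4.34 ± 0.30 (SE), adjusted p = 1.6e-05) belongs to a gene near the limit of detection. The protease inhibitor SPINK7 had 1.01, 1.87, 2.64 and 1.16 CPM in experiment 1 and 11.2, 9.65, 12.5 and 14.2 CPM in experiment 2 and was higher in every library of experiment 2 (log2 2.84 ± 0.26 (SE), adjusted p = 4.94e-05).

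Factors of epithelial lineage did not follow the keratins as a group. TP63, the master regulator of squamous identity, had 17.6, 29.7, 31.5 and 27.9 CPM in experiment 1 and 28.6, 29.0, 26.3 and 26.6 CPM in experiment 2, with full overlap (log2 0.06 ± 0.16 (SE), adjusted p = 0.809). KLF5 had 147, 138, 165 and 148 CPM in experiment 1 and 135, 139, 146 and 149 CPM in experiment 2, also with overlap (log2 -0.07 ± 0.09 (SE), adjusted p = 0.55), and 44.8 to 52.2% of its reads in experiment 1 and 43.1 to 47.1% in experiment 2 were T>C reads. Reads were counted in the 3′UTR of the annotated KLF5 gene, whereas the tagged copy came from a lentiviral cDNA. They may therefore come from the cut endogenous gene and need not measure the RNA of the tagged copy. Nor do they measure its protein, so equal KLF5 supply in the experiments is not shown. SOX2, a factor of squamous and stem cells, was scarce and lower (log2 -1.49 ± 0.20 (SE), adjusted p = 0.000295, 4.56 against 1.63 CPM), EHF, an epithelial ETS factor, was lower (log2 -0.83 ± 0.12 (SE), adjusted p = 0.000493), and ELF3, another, was higher with overlap of the libraries (log2 0.38 ± 0.11 (SE), adjusted p = 0.0211). SERPINB5 (maspin), a target gene of KLF5, was at 36.2, 79.2, 35.2 and 29.4 CPM in experiment 1 and 49.0, 44.8, 43.9 and 43.8 CPM in experiment 2; 1 DMSO library of experiment 1 stood above all others and the difference did not pass the test (log2 0.07 ± 0.23 (SE), adjusted p = 0.842). RUVBL1, an AAA+ ATPase that the study examines as a KLF5 cofactor, had 21.6, 25.2, 21.3 and 18.03 CPM in experiment 1 and 36.7, 33.5, 34.1 and 35.0 CPM in experiment 2, with no overlap (log2 0.70 ± 0.11 (SE), adjusted p = 0.000684), though the gene overlaps SEC61A1 on the opposite strand. RUVBL2 did not pass the test (log2 0.32 ± 0.13 (SE), adjusted p = 0.0719). Of the 92 genes that the study chose as direct KLF5 targets in T3M-4 libraries of these experiments, 41 were higher in experiment 2, 17 lower and 34 not called, with a median of 0.26; since that list was chosen on these samples, its direction is not independent evidence. The Moffitt basal-like list was split, with 44 of 148 higher, 47 lower and a median of -0.04.

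**Figure D3:**
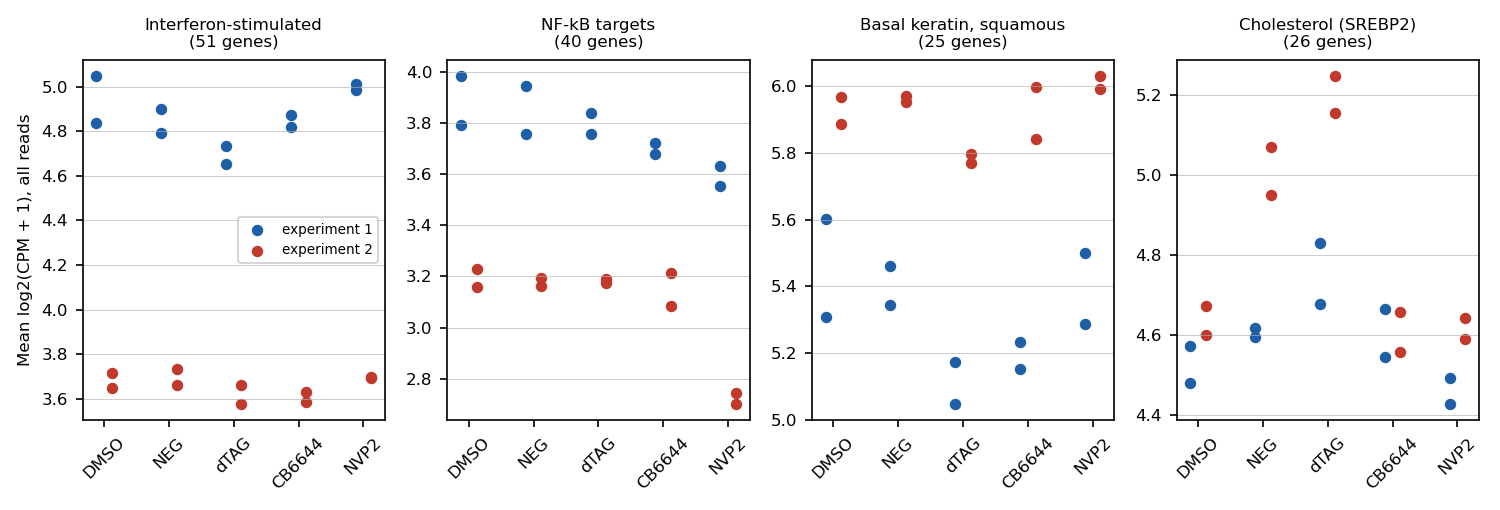
Each point is one T3M-4 library, and the vertical axis gives the mean log2(CPM + 1) of all reads over the members of a list. Compounds run along the horizontal axis, and colours mark experiments 1 and 2. The interferon and NF-kB lists are lower and the basal keratin list higher in experiment 2 under every compound, while the cholesterol list lies farthest apart after NEG and dTAG; this pattern by compound was not tested for the list.

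Cholesterol genes were higher on balance. Of 26 SREBP2 targets tested, 14 were higher in experiment 2, 3 lower and 9 not called in all reads, with a median of 0.32; in T>C reads 11 were higher and 2 lower, with a median of 0.62, and 7 were higher without the first NEG library of experiment 1. DHCR7 (chromosome 11, 71428193 to 71452868, minus strand), the last enzyme of cholesterol synthesis, had 61.4, 63.7, 70.5 and 54.7 CPM in experiment 1 and 146, 149, 179 and 213 CPM in experiment 2. No library overlapped (log2 1.44 ± 0.13 (SE), adjusted p = 3.85e-05). Its T>C reads stood at 25.5, 31.1, 44.6 and 30.4 CPM of T>C reads in experiment 1 and 113, 78.8, 299 and 336 in experiment 2, so that in experiment 2 the NEG libraries were far above the DMSO libraries, while in experiment 1 they were not. The gene EBP, in contrast, was lower (log2 -1.28 ± 0.11 (SE), adjusted p = 3.51e-05), and SREBF2, which encodes SREBP2, did not pass the test (log2 -0.17 ± 0.10 (SE), adjusted p = 0.208).

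The mean level of the list is given by compound as a description of 2 libraries each. In experiment 1 it was 4.48 and 4.57 log2 units in the DMSO libraries and 4.62 and 4.60 in the NEG libraries, and in experiment 2 it was 4.60 and 4.67 after DMSO but 5.07 and 4.95 after NEG. With DMSO libraries alone the list's median difference in T>C reads was 0.25, and with NEG libraries alone 1.06. The test of the interaction did not call DHCR7 in all reads (log2 0.40 ± 0.22 (SE), adjusted p = 0.729), nor any other gene. The same test in T>C reads called 0 of 14440 genes (0%), with 982 at an unadjusted p under 0.05 and 0 called with the size factors of DESeq2 (edgeR). DHCR7 did not pass there (log2 1.31 ± 0.34 (SE), adjusted p = 0.666), so a difference between the compounds was not shown for single genes at this size.

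Cell cycle genes moved unevenly. Of 58 genes of G2/M and mitosis 29 were higher in experiment 2, 8 lower and 21 not called, with a median of 0.33; of 52 genes of G1/S and DNA replication 17 were higher and 14 lower, with a median of 0.02. UBE2C, the ubiquitin-conjugating enzyme of mitotic exit, had 177, 159, 176 and 123 CPM in experiment 1 and 464, 433, 487 and 490.1 CPM in experiment 2, with no overlap (log2 1.56 ± 0.13 (SE), adjusted p = 2.85e-05). TACC3, a spindle protein, was higher by log2 1.36 ± 0.11 (SE), adjusted p = 2.85e-05, and TPX2 by log2 1.047 ± 0.10 (SE), adjusted p = 4.39e-05. MYBL2 (chromosome 20, 43667019 to 43716495, plus strand), a transcription factor of dividing cells, had 25.03, 28.2, 36.5 and 85.1 CPM in experiment 1 and 230.1, 202, 235 and 278 CPM in experiment 2. One NEG library of experiment 1 stood above its companions and still far below experiment 2 (log2 2.55 ± 0.28 (SE), adjusted p = 0.000108). Its new RNA differed by less than its total (log2 1.67 ± 0.28 (SE), adjusted p = 0.0025 in T>C reads), and the labelled share was lower in experiment 2 (log2 -0.89 ± 0.13 (SE), adjusted p = 0.0064). Replication-dependent histones, most of which lack a poly(A) tail, were split, with 6 of 24 higher and 6 lower.

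Of 13889 genes of any type tested in both all reads and T>C reads, 1042 protein-coding genes were higher and 701 lower by a stricter rule. These passed in both kinds of read with the same sign, without overlap in either. They include list members and had at least 10 CPM in the higher experiment. Among the highest, FOLR1, a folate receptor, had 17.3, 28.2, 24.2 and 18.5 CPM in experiment 1 and 127, 126, 114 and 118 CPM in experiment 2 (log2 2.46 ± 0.16 (SE), adjusted p = 1.2e-05), and MFAP5, a microfibril protein, 72.2, 105, 89.3 and 62.2 CPM in experiment 1 and 358, 362, 339 and 330.5 CPM in experiment 2 (log2 2.08 ± 0.15 (SE), adjusted p = 1.71e-05). Both were tight within experiments and did not overlap. SLC29A2, a nucleoside transporter, had 23.4, 23.6, 26.2 and 25.5 CPM in experiment 1 and 116.4, 103, 115 and 134 CPM in experiment 2, and was 4.74-fold higher (log2 2.24 ± 0.10 (SE), adjusted p = 6.82e-06). SLC16A9, THOC6, DDX41, PTK7, PI4KB, BSCL2 and SERF2 complete the upper 12 with MYBL2 and SPINK7, at 3.84-fold to 7.33-fold. Of these, BSCL2 and SERF2 share their strand with the records HNRNPUL2-BSCL2 and HYPK, and THOC6 and PI4KB overlap genes on the opposite strand, so their reads cannot be assigned with certainty. The lower 12 were mostly the interferon and acute-phase genes above. The others were MAP1B, a microtubule protein (log2 -2.35 ± 0.14 (SE), adjusted p = 1.13e-05), and ACOT13 (log2 -2.38 ± 0.15 (SE), adjusted p = 1.23e-05), which overlaps C6orf62.

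Other lists were mixed. Cytosolic ribosomal protein genes were split, with 15 of 79 higher and 34 lower and a median of -0.31, from RPL26 at 3447 against 957 CPM (log2 -1.84 ± 0.14 (SE), adjusted p = 2.13e-05) to FAU at 1439 against 3097 CPM (log2 1.12 ± 0.12 (SE), adjusted p = 7.46e-05). Immediate-early genes had 8 of 28 higher and 9 lower, ATF4 targets 10 of 48 higher and 16 lower, hypoxia targets 5 of 40 higher and 12 lower, p53 targets 6 of 30 and 6, NRF2 targets 10 of 32 and 9, respiratory chain genes 21 of 74 and 24, and proteasome subunits 10 of 31 and 9. ASNS, the asparagine synthetase among the ATF4 targets, averaged 199.9 against 78.2 CPM (log2 -1.36 ± 0.13 (SE), adjusted p = 5.01e-05), whereas ALDH18A1, a proline enzyme of the same list, averaged 7.50 against 24.4 CPM (log2 1.72 ± 0.12 (SE), adjusted p = 1.6e-05). CYP1A1, the classic target of the aryl hydrocarbon receptor, was lower (log2 -1.81 ± 0.12 (SE), adjusted p = 1.23e-05), with 3 of 10 genes of that list higher and 4 lower. YAP-TEAD targets had 9 of 27 higher and 4 lower, with AMOTL2 at 92.1 against 295 CPM (log2 1.69 ± 0.14 (SE), adjusted p = 3.12e-05). Heat shock genes included HSPB1 at 1148 against 3097 CPM and HSPA8 at 3107 against 1439 CPM, in opposite directions. Glycolysis genes had 7 of 20 higher and 5 lower, with the enzyme ENO1 higher (log2 1.12 ± 0.10 (SE), adjusted p = 3.73e-05) and the lactate transporter SLC16A1 lower (log2 -0.77 ± 0.10 (SE), adjusted p = 0.000257).

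**Figure D4:**
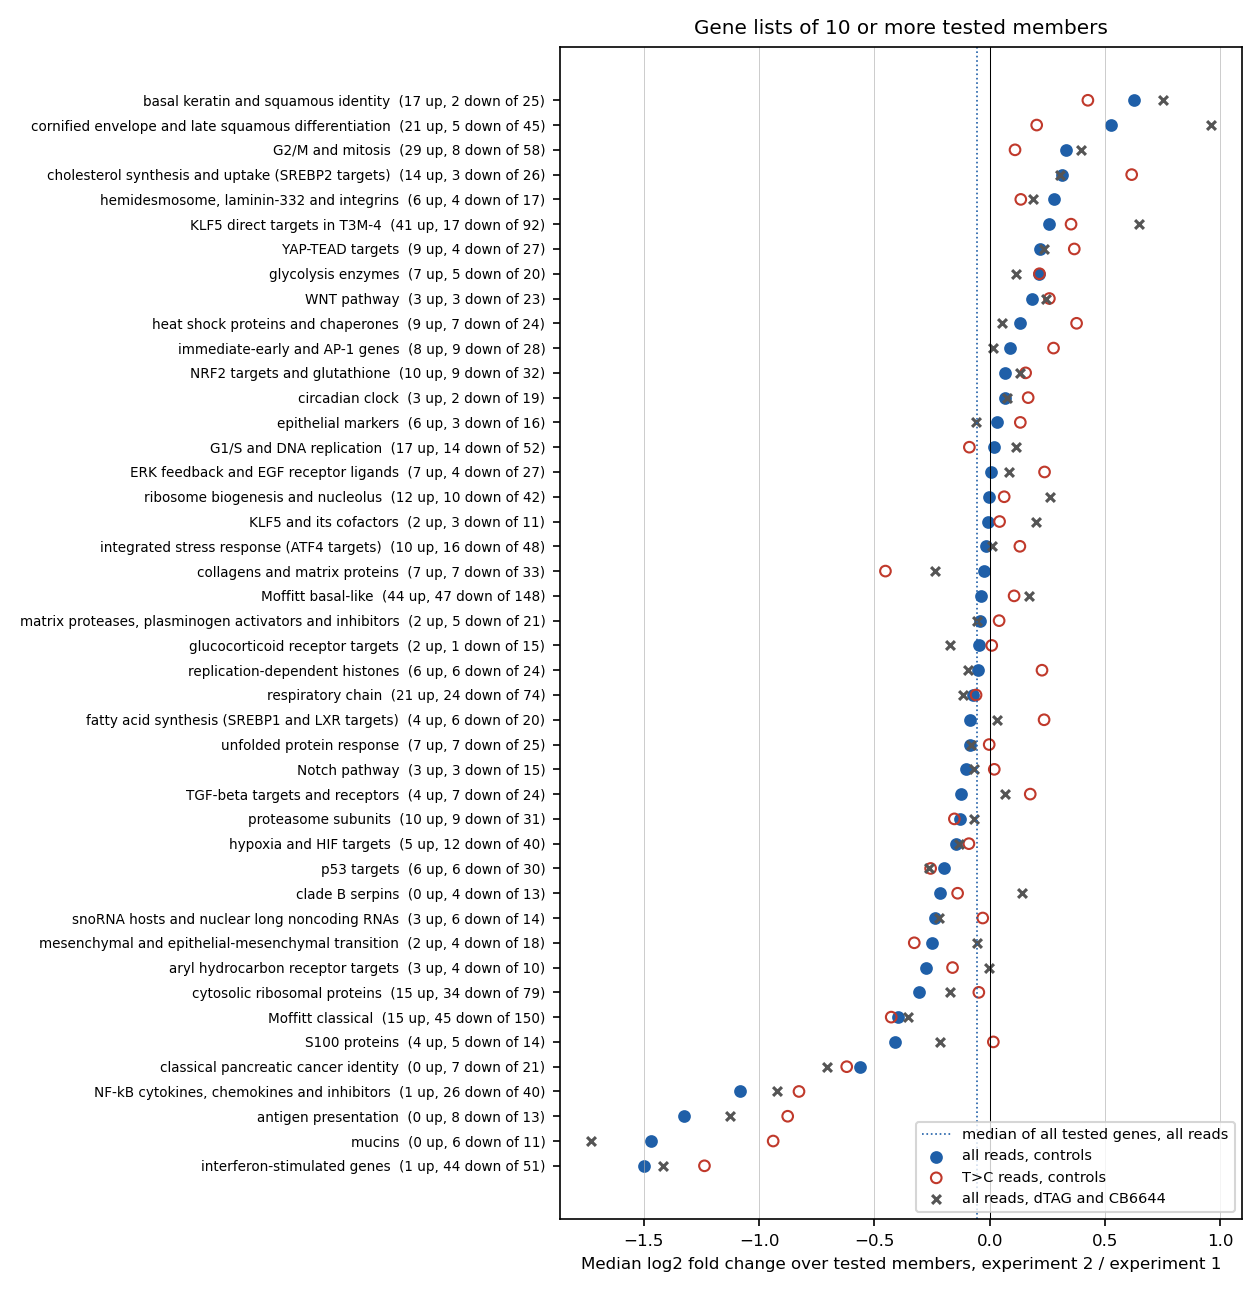
Each row is a gene list with at least 10 tested members, and the horizontal axis gives the median log2 fold change of experiment 2 over experiment 1 over its members in all reads of the controls, in T>C reads of the controls and in all reads of the dTAG and CB6644 libraries. Interferon-stimulated genes lie at -1.50, -1.24 and -1.42, and most other lists lie between -0.5 and 0.5.

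The experiments also differed in the share of labelled reads. T>C reads were 14.1%, 13.4%, 13.03% and 13.3% of all reads in experiment 1 and 11.1%, 11.1%, 12.2% and 12.2% in experiment 2. The means were 13.4% ± 0.449 (SD, n = 4) and 11.6% ± 0.661 (n = 4), a difference of -1.79 percentage points (exact two-sided permutation test, p = 0.0286, the smallest that 4 against 4 libraries can give). The median gene's labelled share was 18.9% ± 0.858 against 15.2% ± 0.839, with the same p of this exact permutation test. MALAT1, a nuclear long noncoding RNA, took 8.19 to 11.1% of the counts of a library in experiment 1 and 3.24 to 3.82% in experiment 2 (log2 -1.52 ± 0.12 (SE), adjusted p = 2.37e-05), but in the dTAG and CB6644 libraries its share overlapped, at 4.99 to 10.6% and 3.38 to 5.30%, and it did not pass the test (log2 -0.64 ± 0.26 (SE), adjusted p = 0.105).

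**Figure D5:**
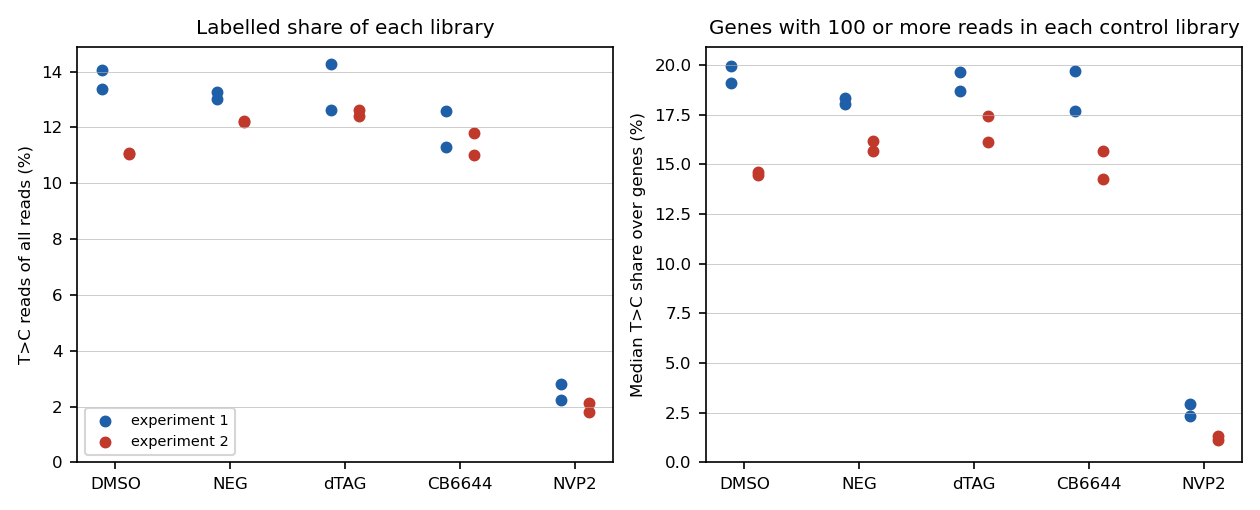
Points are T3M-4 libraries by compound and experiment. The left panel gives the labelled share of a library, in percent, and the right panel the median over genes of that percentage; the control libraries lie at 13.03 to 14.1% in experiment 1 and 11.1 to 12.2% in experiment 2 on the left.

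Set against this lower overall share, some genes kept or gained labelled reads. In a test of new against unconverted reads across 13711 genes, 476 (3.47%) had a higher labelled share in experiment 2 relative to the average gene and 432 (3.15%) a lower one. This count rests on the number of libraries: without any one of the 4 libraries of experiment 1, or without 1 of the DMSO libraries of experiment 2, between 314 and 441 genes were called in all in place of 908. KLF6, a fast-turning transcription factor RNA, had 66.0, 62.3, 63.3 and 61.8% in experiment 1 and 77.2, 79.6, 80.7 and 79.5% in experiment 2 labelled reads, with no overlap (log2 1.43 ± 0.09 (SE), adjusted p = 0.0003). MALAT1 had 13.2, 12.2, 12.96 and 12.4% in experiment 1 and 16.5, 16.7, 18.2 and 17.4% in experiment 2, and RBM39, a splicing factor, 37.9, 37.0, 33.7 and 36.1% in experiment 1 and 43.5, 45.8, 48.6 and 49.7% in experiment 2. All 3 were higher in every library of experiment 2. HNRNPK, an RNA-binding protein, had 13.6, 13.9, 10.6 and 10.4% in experiment 1 and 6.45, 6.37, 7.11 and 6.73% in experiment 2, and CTNND1, the p120 catenin, 18.5, 17.9, 16.6 and 16.3% in experiment 1 and 8.97, 9.74, 10.9 and 9.52% in experiment 2; both were lower in every library of experiment 2 (log2 -0.65 ± 0.06 (SE), adjusted p = 0.00128 and -0.66 ± 0.06 (SE), adjusted p = 0.00095). Among the lists, 10 of 27 immediate-early genes, 18 of 78 ribosomal protein genes and 7 of 26 cholesterol genes were higher, and 0, 1 and 0 lower, whereas 9 of 58 G2/M genes were lower and 0 higher.

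Many of the gene differences between the experiments were also present under treatment. The labelled share was not called there, at 12.7% ± 1.21 (SD, n = 4) against 11.96% ± 0.718 (n = 4), a difference of -0.73 percentage points (exact two-sided permutation test, p = 0.343), while the median gene's labelled share differed by -3.07 percentage points (p = 0.0286 by the same exact permutation test). In the 8 dTAG and CB6644 libraries, 1931 of 16250 genes (11.9%) were higher in experiment 2 and 1805 (11.1%) lower in all reads, and 1012 of 13950 (7.25%) higher and 599 (4.29%) lower in T>C reads. Of 6166 genes called in the controls and tested in both, 5683 (92.2%) had the same sign in the treated libraries and 2858 (46.4%) were also called with that sign, which is 77.1% of the treated calls. Over all 15822 genes tested in both, called or not, 77.4% had the same sign. The treated counts are sensitive to single libraries: without the first dTAG library of experiment 1, the second CB6644 library or the second dTAG library of experiment 2 there were 2217, 2131 and 2354 calls in all reads. In T>C reads the 1611 calls became 604 to 801 without one of 5 libraries, namely either CB6644 library or the first dTAG library of experiment 1 and the second CB6644 or dTAG library of experiment 2. Treated libraries share no sample with the controls but share the experiment and batch. Interferon-stimulated genes had 0 of 51 higher and 40 lower there, NF-kB genes 2 of 40 higher and 20 lower, basal keratin genes 16 of 25 higher and 0 lower, and cornified envelope genes 23 of 43 higher and 2 lower. IFI6 was lower by log2 -3.68 ± 0.23 (SE), adjusted p = 8.78e-05 and LCN2 by log2 -2.89 ± 0.35 (SE), adjusted p = 0.000765, and KRT5 was higher by log2 2.39 ± 0.22 (SE), adjusted p = 0.000226. TP63, which did not pass in the controls, was higher in the treated libraries (log2 0.82 ± 0.17 (SE), adjusted p = 0.00822), as was SERPINB5 (log2 0.75 ± 0.12 (SE), adjusted p = 0.00293); whether these 2 differences exceed those in the controls was not tested. RUVBL1 (log2 0.37 ± 0.18 (SE), adjusted p = 0.165) and ELF3 (log2 -0.33 ± 0.15 (SE), adjusted p = 0.152) passed in the controls but not in the treated libraries (edgeR).

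Other measures moved with the experiment too. The median log2 difference rose with the GC content of the 3′UTR, from -0.17 in the quintile of lowest GC to 0.20 in that of highest, a rank correlation of 0.189 across 13987 genes, which are not independent, and it showed next to none with 3′UTR length (-0.018). The rank correlation with the log2 CPM of a gene was 0.189 too, across 16123 genes, and GC content and level were not separated. With offsets for GC content and length of the 3′UTR, 5692 of the 13987 genes tested were called, against 6187 of 16123 without them. The sets of genes differ, so the counts do not show that calls were lost. The part of base composition in the differences was not tested beyond this. Along the genome, of 296 blocks of 10 Mb with at least 10 tested genes, 16 had a median more than 0.3 from that of all genes, the lowest at -0.58 on chromosome 18 and the highest at 0.32 on chromosome X. In AsPC-1, a classical pancreatic cancer line with the same KLF5 replacement, 824 of 14560 genes (5.66%) differed between the controls of its experiments 1 and 2, which the labels put in a single batch. The difference between the lines in that share was not tested, and the number of libraries differed.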

How the data were processed

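The authors labelled cells with 4sU, made 3′ end libraries (QuantSeq) by oligo(dT) priming with PCR, aligned to hg38 and counted with slamdunk under its defaults in the 3′UTR exons of GENCODE v44, which were added up for each gene. Its version is not given in the sources used here. The deposited values are raw counts per gene, of T>C reads and of all reads, with no normalization. Among 16123 tested genes, 1503 (9.32%) had counts that shared a divisor above 1 in all 8 libraries, so some reads were counted more than once. PCR reads without molecular identifiers are not independent molecules. There were 0 unmapped columns of per-sample values. No spike-in or library without 4sU was used here, so conversions with another origin could not be subtracted and all levels are relative.

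Genes were tested on the counts as deposited with edgeR 4.0.16 in R 4.3.3 (filterByExpr, TMM, glmQLFit and glmQLFTest) in a model of experiment and compound, with only the control libraries or only the dTAG and CB6644 libraries in a fit. New against unconverted reads were tested as an interaction of read kind and experiment with a term for each library. Standard errors were taken as the absolute log2 fold change over the root of the F statistic. For the labelled shares, all 70 splits of 4 against 4 libraries were enumerated in an exact permutation test (two-sided). Replicate libraries were compared first, and every pair differed by far more than counting noise. Scripts were tested on simulated data. Promoter windows came from RefSeq (GRCh38.p14), and Python 3.11.15 searched them. Gene records were GENCODE, matched by name for 29773 of 29794 genes.

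The 8 libraries, the 48 gene lists and the tests were chosen with earlier results of these data known. By rule, the named genes were KLF5, RUVBL1, RUVBL2, TP63, KRT5, KRT6A, KRT17, S100A2, SERPINB5 and ELF3. Added to them were the 12 protein-coding genes of largest change in each direction called without overlap in both kinds of read. These needed a mean of at least 10 CPM. The rule also took up to 3 called genes of smallest p per list, and 5 per direction of smallest p in new against unconverted reads. Members of the lists and interferon and NF-kB pathway genes named beyond that rule were chosen after their values were seen, and some genes under the rule are not reported here. Alternatives were DESeq2 1.42.0 and its size factors, other filters, single compounds, summed libraries, leaving out each library, scaling by all reads and, chosen after seeing the data, offsets for GC content and length of the 3′UTR and the interaction of compound and experiment in T>C reads.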

Additional observations from a re-analysis of the deposited data

Results flagged for a closer look

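Of 188 sets of 4 control libraries checked (the named genes, list levels and labelled shares of each experiment), 9 (4.79%) had 1 library far from the other 3, 7 of them in experiment 1 and 2 in experiment 2; chance flags about 1 in 20 such sets. Each had a gap to its nearest neighbour that was a large part of the range of the 4 values.

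Among single genes, SAA1 stood at 268 CPM of all reads in the second DMSO library of experiment 1, against 69.5 to 84.9 in the other 3. SERPINB5 was at 79.2 CPM in the same library, against 29.4 to 36.2. ELF3, an epithelial transcription factor, was at 36.0 CPM in the second NEG library of experiment 1, against 25.5 to 27.3. MALAT1 was at 79110.0 CPM in the first DMSO library of experiment 1, against 107400.0 to 111800.0. SLC2A4RG was at 203 CPM in the second NEG library of experiment 2, against 224 to 228.

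Among list levels, given as the mean log2(CPM + 1) of the members, the circadian clock list was at 2.66 in the first NEG library of experiment 1, against 2.59 to 2.60, and at 2.75 in the first DMSO library of experiment 2, against 2.69 to 2.70. The second NEG library of experiment 1 was at 4.94 for G2/M and mitosis genes, against 5.04 to 5.05, and at 7.08 for respiratory chain genes, against 7.20 to 7.22. The differences between experiments in these lists were given with all 8 libraries.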

How the results depend on the processing

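In all reads the 6187 calls between experiments came to 5692 to 6811 under DESeq2, its size factors, offsets for GC content and length, a minimum of 1 CPM in 4 libraries, no filter or no compound term, and to 4927 with libraries summed per compound. These settings tested 11798 to 21658 genes, against 16123 in the main fit, so the counts are not shares of one set. They came to 3399 with the DMSO libraries alone, 3515 with the NEG libraries alone and 1717 with a log2 fold change of at least 1, and to 4788 to 5882 without single libraries. In T>C reads the 2970 calls came to 829, 452 and 1015 in the same 3 settings, to 1868 with libraries summed and to 1960 to 2573 without single libraries. The test of new against unconverted reads gave 314 to 780 calls without single libraries. In the treated libraries the calls in all reads came to 715 with dTAG, 1434 with CB6644 and 387 with NVP2 libraries alone, and to 2131 to 4375 without single libraries. In T>C reads they came to 127 and 38 with dTAG and CB6644 alone and to 604 to 1613 without single libraries. The labelled share differed by -2.65 percentage points with DMSO and -0.93 with NEG libraries alone, where 2 against 2 libraries cannot reach the threshold. Settings with fewer libraries have less power by construction. Of the values of single named genes over all settings, 2716 in all reads and 2579 in T>C reads kept their direction and side of the threshold, 89 and 245 no longer passed it, 6 and 25 newly passed it, and 0 changed sign past it. Of the medians of 10 lists recomputed under every setting, those in all reads kept their sign and 3 in T>C reads changed it: with scaling by the totals of all reads to -0.04 for the cornified envelope list and -0.15 for G2/M genes, and with the offsets to 0.06 for ribosomal protein genes. The cause was not tested.

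No paired analysis was possible because the experiments compared share no replicate numbers. Depth limits genes such as KRT1 and IFITM1 in T>C reads.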
